A study of Macaca fascicularis with 48 samples.

Results

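The ATP-binding cassette (ABC) transporters are membrane proteins that use ATP to move lipids, bile constituents, drugs, metals, haem precursors and peptides across a membrane, and the family also holds soluble members that work on the ribosome. Members were taken by gene symbol, as every gene whose name begins with ABC, a subfamily letter from A to G and a number, and 42 of the 16842 gene names in the count table met that rule. ABCB4, ABCG2 and ABCF2 were not analysed here.

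The RNA came from cynomolgus monkeys given GS-8873, an inhibitor of hepatitis B virus transcripts, by oral gavage for 13 weeks at 0 mg/kg/day (control) or 6 mg/kg/day (treated). Sequencing covered 6 tissues, namely liver, the spinal cord at 3 levels (cervical, thoracic, lumbar) and the dorsal root ganglia at the cervical and the lumbar level, with 4 control and 4 treated libraries per tissue and 2 males in every group. The same 4 control animals gave all 6 tissues. Treated liver and cord came from 4 animals, whereas treated ganglia came from 6, of which 2 gave both regions, so that the labels name 10 animals in all.

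In the liver, ABC proteins of the canalicular membrane secrete bile salts, conjugates, phospholipid and sterols into bile, and others on the basolateral side return conjugates to blood. At the blood-brain barrier, ABCB1 and relatives return drugs to the blood. In neurons and glia, the ABCA and ABCG lipid exporters load cholesterol and phospholipid onto lipoproteins and supply the membranes of myelin, and ABCA1 is a classical target of the liver X receptors, which sense oxysterols.

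The 48 libraries held 35453786 to 53480762 assigned reads. Liver libraries carried hepatocyte markers and ganglion libraries sensory neuron and Schwann cell markers, as their labels state, but the lumbar cord libraries labelled control 1 and treated 1 did not look like cord. MOG, an oligodendrocyte myelin gene, stood at 0.258 and 0.087 CPM (reads of a gene relative to the size of its library) there, and the summed level of 5 astrocyte markers at 94.9 and 99.0 CPM. The 6 Schwann cell markers summed to 27651 and 19669 CPM in the same libraries, and lumbar cord control 2 and cervical cord control 1 stood at 9955 and 8207 CPM for that sum. In thoracic cord, control 4, treated 1 and treated 4 held 37.3%, 32.2% and 36.4% of their reads in mitochondrial genes. The cervical ganglion library control 4 had the highest summed fibroblast markers of its tissue, 7546 CPM. Its summed neuron markers were the lowest among the controls, 10730 CPM. The cervical ganglion library treated 4 had the lowest summed neuron and sensory neuron markers of its tissue, 6247 and 656 CPM. Its mitochondrial share, 23.01%, was the highest there, and it held the lowest ABCC5 and highest ABCB6 value. The lumbar ganglion library treated 1 had the highest summed fibroblast markers of its tissue, 3750 CPM, and the lowest sensory neuron markers, 1307 CPM. It held the highest ABCA1 and lowest ABCA3 value there. Results that rest on these libraries are given with their values.

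In untreated animals the leading members of the family differed between the 3 organs. The 4 members of the bile canaliculus, ABCB11, ABCC2, ABCG5 and ABCG8, stood above 100 CPM per kilobase in liver and below 1 CPM per kilobase in cord and ganglia. ABCA2, a lipid transporter of endosomes and lysosomes that is abundant in myelinating oligodendrocytes, was the highest member in cord, and ABCA8, a lipid transporter linked to sphingomyelin, was the highest in ganglia. Levels that compare genes are TMM-scaled CPM divided by the kilobases of exon of each gene, averaged per organ for each control animal and given as mean ± SD over 4 animals.

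**Figure D1:**
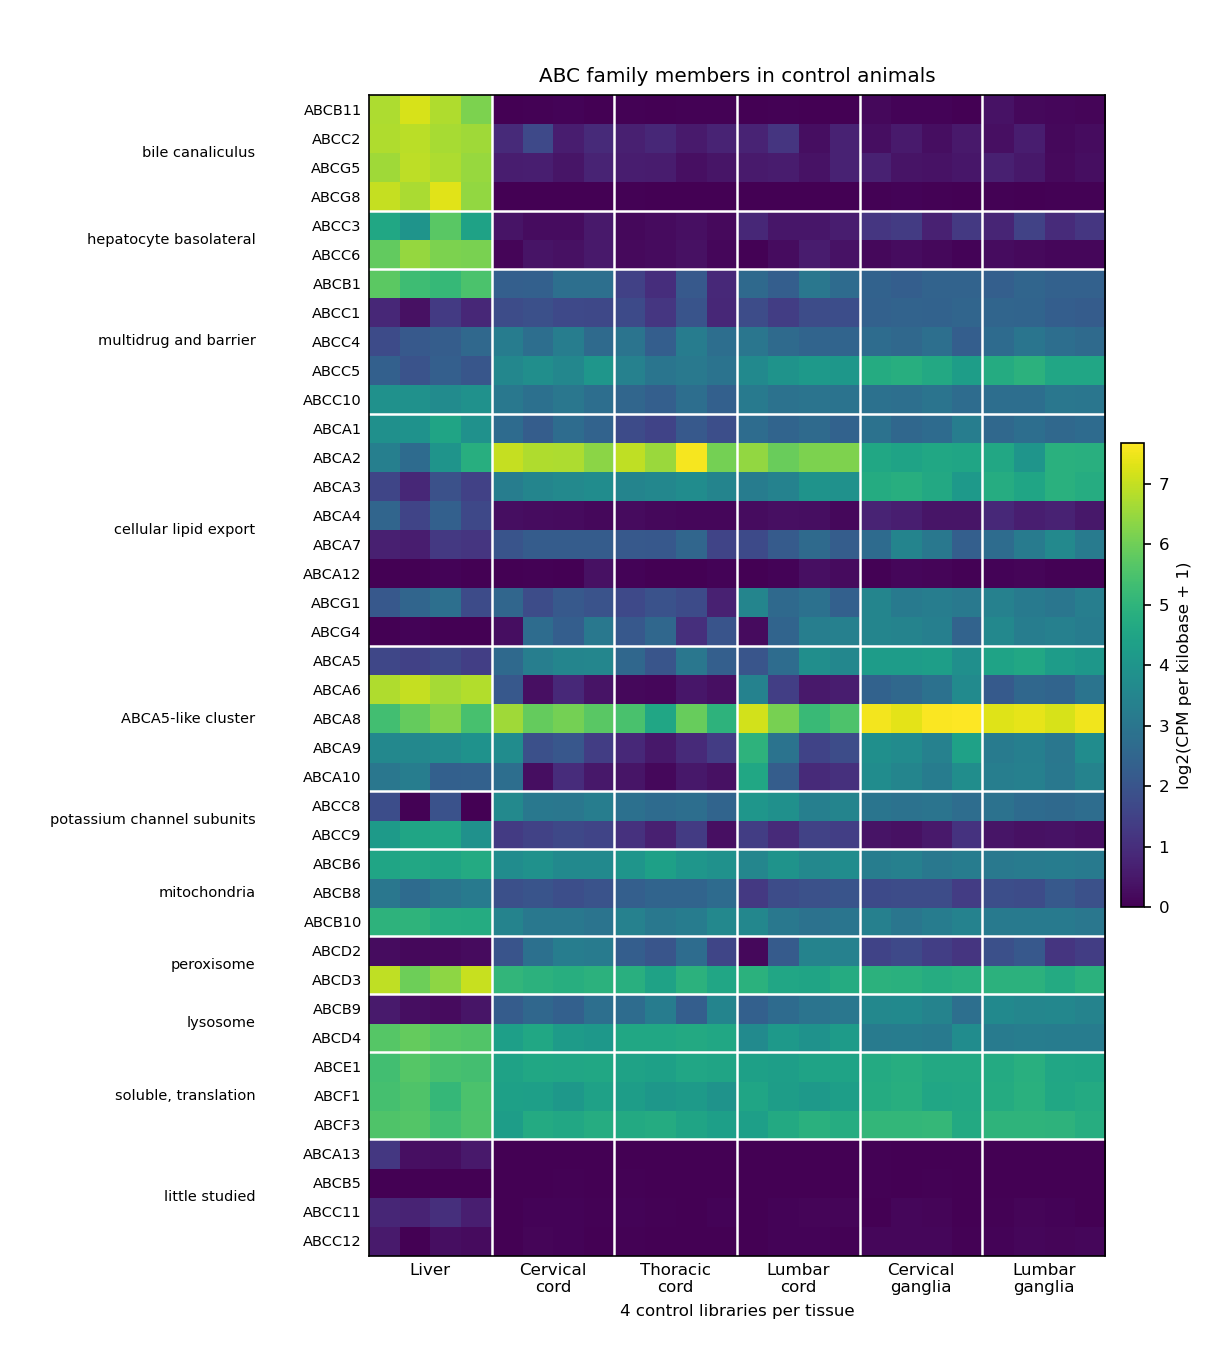
Each row is one of 40 members grouped by role, and each column is a control library, with colour for log2(CPM per kilobase + 1). The bile canaliculus rows are bright only in the liver columns, ABCA2 is brightest in cord, and ABCA8 is brightest in the ganglia.

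By organ, 26 of the 42 members were highest in liver, 5 in cord and 11 in ganglia. The family summed to 1222 CPM per kilobase in liver, 399 in cord and 510.1 in ganglia. The top 5 members of liver, which were ABCG8, ABCA6, ABCB11, ABCC2 and ABCG5, made up 44.8% of its sum. ABCA2 alone made up 24.7% of the cord sum and ABCA8 alone 34.5% of the ganglion sum. In control liver 10 members stood under 1 CPM per kilobase, against 12 in cord and 12 in ganglia, and 5 members were that low in every organ.

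The organs were compared within the 4 control animals with edgeR's quasi-likelihood test, in which 41 members could be tested. Against cord, liver was higher for 27 members and lower for 11, while 3 did not pass an adjusted p of 0.05. Over all 15008 genes tested, 76% passed this test, 33.8% higher and 42.2% lower in liver. The median log2 difference was 1.12 over the members and -0.19 over all genes. Against ganglia, liver was higher for 24 members and lower for 13, where 75.4% of all genes passed, 34.7% higher and 40.7% lower. Ganglia were higher than cord for 22 members and lower for 8, where 61.9% of all genes passed, 29.5% higher and 32.4% lower. Scaling by total counts in place of TMM moved the median of all genes to -1.27 for liver against cord and changed the split of members to 17 higher and 16 lower. For liver against ganglia that scaling gave a median of all genes of -1.32 and a split of 16 higher and 19 lower. In bulk tissue, fewer cells of a type and less RNA per cell cannot be told apart.

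The bile canaliculus held the steepest organ contrast. ABCG8, which with ABCG5 forms the sterol pump of the canaliculus, had a level of 119 ± 32.8 CPM per kilobase in liver, with single animals from 85.4 to 161. The 4 control liver libraries held 39218 ABCG8 reads, while 12 control cord libraries together held 17. ABCG5 had 103 ± 13.7 CPM per kilobase in liver, 0.474 ± 0.123 in cord and 0.373 ± 0.169 in ganglia. On Macaca_fascicularis_5.0, ABCG8 lies on chromosome 13 at 66552135 to 66580501 on the minus strand and ABCG5 at 66580642 to 66608178 on the plus strand, so that the pair is arranged head to head with 140 bp between the annotated genes. ABCB11, the bile salt export pump (chromosome 12, 57802452 to 57916428, minus strand), had 108 ± 31.5 CPM per kilobase in liver and 0.0191 ± 0.00587 in cord. ABCC2, which exports bilirubin glucuronides and other conjugates, had 106 ± 10.01 CPM per kilobase in liver, and its animals ranged from 94.9 to 119. The ranges of these 4 genes over animals overlapped in liver, so the data give no order among them.

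ABCC2 differed between the neural organs too. Its log2 difference of ganglia against cord was -1.37 ± 0.20 (SE, edgeR adjusted p = 1.35e-05), whereas ABCG5 showed -0.34 ± 0.19 (adjusted p = 0.128) and did not pass. On the basolateral side of hepatocytes, ABCC6, which is needed for release of ATP from liver, had 71.1 ± 12.8 CPM per kilobase in liver and 0.233 ± 0.112 in cord. ABCC3, which returns conjugates to blood, varied more between animals, with 27.5 ± 16.7 CPM per kilobase in liver and single animals from 14.8 to 52.1. ABCC3 was higher in ganglia than in cord by a log2 difference of 2.08 ± 0.28 (adjusted p = 5.57e-06).

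Of the multidrug transporters, ABCB1, the P-glycoprotein of the blood-brain barrier and the canaliculus, was highest in liver at 42.4 ± 7.91 CPM per kilobase. Its level in cord, 4.08 ± 1.07, and in ganglia, 4.29 ± 0.0764, did not differ beyond the error (log2 difference 0.32 ± 0.18, adjusted p = 0.131). ABCC5, an exporter of cyclic nucleotides and other organic anions, ran the other way. Its level rose in order from liver (3.55 ± 0.610) through cord (11.6 ± 0.878) to ganglia (24.3 ± 3.36 CPM per kilobase), and the log2 difference of ganglia against cord was 1.15 ± 0.11 (adjusted p = 1.42e-07). ABCC1, which exports glutathione conjugates and leukotrienes, followed the same order at lower levels, 0.844, 2.17 and 4.32 CPM per kilobase. ABCC10, a drug exporter, was highest in liver at 13.4 CPM per kilobase, and ABCC4, which exports prostaglandins and cyclic nucleotides, spanned 3.67 in liver to 6.20 in cord.

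Among the members grouped under lipid export, ABCA2 stood higher in cord than in ganglia and ABCA3 higher in ganglia than in cord. ABCA2 had 98.5 ± 23.2 CPM per kilobase in cord, with animals from 72.5 to 123, against 22.98 ± 3.42 in ganglia and 14.02 ± 9.54 in liver. Its log2 difference of ganglia against cord was -2.05 ± 0.25 (adjusted p = 1.63e-06). ABCA3, best known for loading surfactant lipid in lung cells, had 24.4 ± 2.06 CPM per kilobase in ganglia, 10.96 ± 1.68 in cord and 1.85 ± 0.808 in liver, and its log2 difference of ganglia against cord was 1.2 ± 0.15 (adjusted p = 2.97e-06). ABCA7, a phospholipid exporter, and ABCG4, a neural relative of the sterol exporter ABCG1, were also highest in ganglia, at 7.53 and 8.84 CPM per kilobase. For ABCG4, cord had 4.34 ± 2.23, with animals from 1.26 to 6.56, against 6.48 to 10.6 in ganglia, so these ranges touched. Its lumbar cord level was 7.51 in place of 5.67 without the low-MOG control library. Leaving out each control animal gave log2 differences of ganglia against cord from 0.78 to 1.77. ABCG1 itself had 8.44 ± 0.943 CPM per kilobase in ganglia and did not differ between liver and cord beyond the error (log2 difference 0.14 ± 0.26, adjusted p = 0.628). ABCA1, the exporter that loads lipid onto apolipoprotein A-I, was highest in liver at 15.8 ± 3.85 CPM per kilobase, followed by ganglia at 5.85 ± 0.793 and cord at 4.10 ± 0.621. ABCA4, the retinoid flippase of photoreceptors, reached 3.26 CPM per kilobase in liver, and ABCA12, the skin lipid transporter, stayed below 0.1 in every organ.

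ABCA8, ABCA9, ABCA6, ABCA10 and ABCA5 lie next to one another in that order on chromosome 16, all on the minus strand, between 66030724 and 66451360 of Macaca_fascicularis_5.0. The span is 420637 bp, the gaps run from 4354 to 20511 bp, and no other gene of the table lies between them. These neighbours had different organ patterns. ABCA6 had 111 ± 11.8 CPM per kilobase in liver and 5.90 ± 2.35 in ganglia, whereas ABCA8 had 54.1 ± 16.6 in liver and 176 ± 12.4 in ganglia. ABCA5 rose from 1.94 ± 0.232 in liver through 7.20 ± 2.62 in cord to 18.3 ± 2.67 in ganglia. ABCA9, at 12.04 CPM per kilobase in liver and 11.4 in ganglia, did not differ between liver and ganglia beyond the error (log2 difference 0.02 ± 0.53, adjusted p = 0.978).

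In lumbar cord 4 of these 5 neighbours were highest in the libraries that carried Schwann cell markers, and ABCA5 was not. ABCA10 stood at 129, 23.3, 5.07 and 6.29 CPM in control libraries 1 to 4 of lumbar cord and at 93.1, 10.99, 7.36 and 2.46 CPM in treated libraries 1 to 4. The library labelled 1 was the highest of each group, control 2 stood next among the controls, and the groups overlapped. ABCA6 read 72.7 and 58.7 CPM and ABCA9 277 and 233 CPM in those 2 libraries, against at most 13.4 and 65.5 CPM in the other lumbar cord libraries. ABCA8 read 1015 and 1201 CPM there, against 120.2 to 514.7 CPM in the others. ABCA5 ran the other way, at 18.7 CPM in control 1 against 35.8, 80.5 and 67.04 CPM in controls 2 to 4, and at 18.4 CPM in treated 1 against 22.1 to 48.5 CPM in treated 2 to 4. ABCG4 was lower as well, at 0.818 and 1.05 CPM there against 20.6 to 45.9 CPM in the others. ABCA2 was the highest of each group in these libraries of low MOG. It read 778 CPM in control 1 against 581 to 667 CPM in controls 2 to 4. In treated 1 it read 967 CPM against 312 to 851 CPM in treated 2 to 4. Without the low-MOG control library the lumbar cord level of ABCA10 was 1.94 CPM per kilobase in place of 7.16, and that of ABCA8 was 49.7 in place of 72.98. The part of the Schwann cell markers in these values was not tested.

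The regulatory subunits of ATP-sensitive potassium channels also parted by organ. ABCC9, which marks pericytes and smooth muscle in many tissues, had 18.9 ± 4.15 CPM per kilobase in liver, 1.42 ± 0.311 in cord and 0.421 ± 0.198 in ganglia. ABCC8, the subunit of neurons and beta cells, had 8.69 ± 1.57 in cord and 6.10 ± 0.433 in ganglia. Single animals ranged from 7.37 to 10.9 in cord and from 5.73 to 6.73 in ganglia, without overlap. The log2 difference of ganglia against cord, -0.40 ± 0.51, did not pass (edgeR adjusted p = 0.509). That error came from a fit that also held the control livers, where ABCC8 read 0 to 2.81 CPM per kilobase.

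In mitochondria, ABCB10, which supports haem synthesis, had 28.3 CPM per kilobase in liver, 8.26 in cord and 8.16 in ganglia. ABCB6, a porphyrin transporter, had 23, 13.4 and 8.18 in the same order, and ABCB8, linked to mitochondrial iron export, 6.81, 3.28 and 2.5. In peroxisomes, ABCD3, which imports branched-chain and bile acid precursors, had 99.9 ± 32.4 CPM per kilobase in liver and 26.5 ± 2.37 in cord. ABCD2, a very-long-chain fatty acid importer, was highest in cord at 5.29 ± 2.47 and was 0.152 ± 0.0375 in liver. In lysosomes, ABCD4, which takes part in release of vitamin B12, was highest in liver at 51.1 ± 4.69, and the peptide transporter ABCB9 was highest in ganglia at 10.1 ± 1.51 and stood at 0.299 in liver. The liver levels of ABCD2 and ABCB9 were under 1 CPM per kilobase, while every other organelle member named here stood above it in all 3 organs.

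The soluble members spanned a narrow range. ABCE1, which splits ribosomes after termination, had 43.1, 21.1 and 24.5 CPM per kilobase in liver, cord and ganglia. ABCF1, which takes part in translation initiation, had 41.7, 18 and 25, and ABCF3 had 44.9, 23.4 and 30.5. The direction for ABCE1 and ABCF3 between liver and either neural organ turned under scaling by total counts, as did ABCF1 against ganglia and ABCB6, ABCB8 and ABCG1 against cord. ABCA13, ABCC11 and ABCC12, which are little studied, read 0.572, 0.774 and 0.217 CPM per kilobase in liver and less than 0.1 elsewhere. ABCB5 never passed the filter on low counts, and its highest library held 9 reads.

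In liver, treatment with GS-8873 left no member past the threshold. Of 38 members tested, 0 passed an adjusted p of 0.05 in edgeR, DESeq2 or limma voom, against 0% of all 12609 genes in edgeR, and 3 had an unadjusted p under 0.05, against 8.32% of all genes. None of the 38 had control and treated values that did not overlap, against 5.19% of all genes. The fitted log2 fold changes were positive for 26 members and negative for 12, with a median of 0.08 over members and 0.01 over all genes. Total-count scaling moved the median of all genes to 0.18.

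ABCB11 read 358, 488, 369.7 and 240.4 CPM in control livers and 305, 620.3, 461 and 258 CPM in treated livers, and its log2 fold change was 0.19 ± 0.28. ABCC2 read 268, 286, 253 and 235 CPM in controls and 248, 300.1, 336 and 223 CPM in treated ones, and the log2 fold change was 0.09 ± 0.15. The groups overlapped for both genes. ABCG5 and ABCG8 gave log2 fold changes of 0.18 ± 0.14 and 0.23 ± 0.20, so all 4 canalicular members had positive values that did not pass. ABCC3 gave 0.17 ± 0.29 and ABCC6 0.21 ± 0.16.

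**Figure D2:**
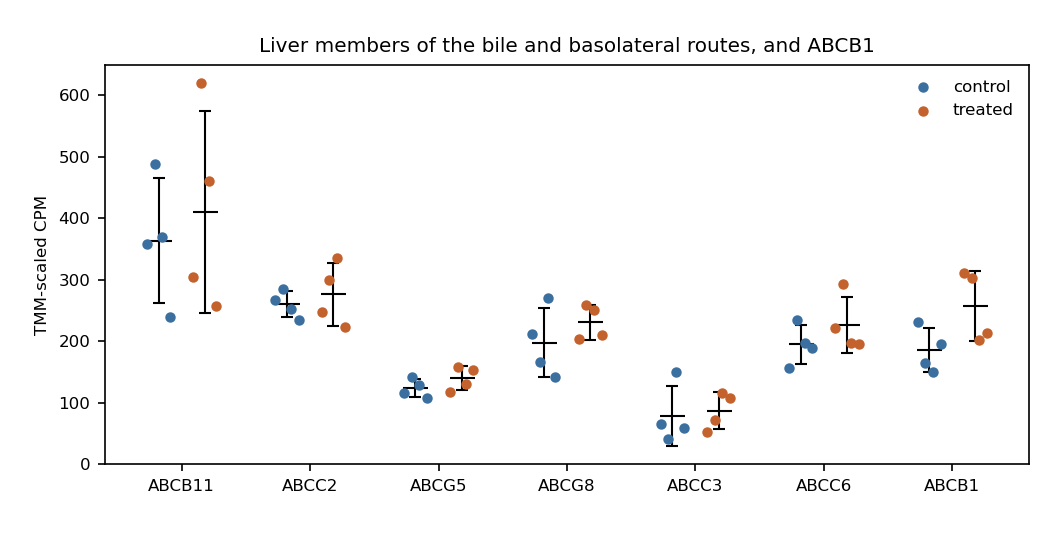
Points are single liver libraries (TMM-scaled CPM on the vertical axis, control in blue and treated in orange), with the mean and SD of 4 libraries in black. The 4 canalicular genes, the basolateral genes ABCC3 and ABCC6, and ABCB1 overlap between the groups.

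The smallest p-values in liver belonged to ABCB8, ABCB1 and ABCD4. ABCB8 read 15.4, 11.1, 14.4 and 16.9 CPM in controls and 10.2, 9.80, 10.7 and 12.2 CPM in treated livers, with a log2 fold change of -0.43 ± 0.13 (adjusted p = 0.412). ABCB1 read 231, 164, 150.3 and 197 CPM in controls and 311, 303, 203 and 214 CPM in treated livers, 0.45 ± 0.15 (adjusted p = 0.446). Control 2 lay below treated 4 for ABCB8, and control 1 lay above treated 3 and treated 4 for ABCB1, so both overlapped and neither passed. ABCB8 overlaps ASIC3 and the counting ignored strand, so reads of the pair cannot be fully told apart. ABCD4 gave 0.27 ± 0.11 (adjusted p = 0.575). Of the bile acid and xenobiotic receptors that regulate these genes, 5 of 6 listed could be tested and 0 passed.

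In the 3 cord regions no member passed either. Of the members tested, 0 of 37 in cervical, 0 of 37 in thoracic and 0 of 38 in lumbar cord passed the edgeR test, against 0% of all genes in each region. An unadjusted p under 0.05 was found for 6, 1 and 1 members, against 9.53%, 2.33% and 1.74% of all genes. No tested member lacked overlap in cervical or lumbar cord, against 6.08% and 1.57% of all genes tested. Members too low to be tested in a region, such as ABCG8 in cervical cord, are outside these counts. With the counts of the 3 regions summed per animal, 0 of 41 members passed in edgeR, against 0% of all genes, 3 had an unadjusted p under 0.05, against 3.49%, and DESeq2 passed 1.

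ABCA1 had a positive log2 fold change in all 3 cord regions without passing. In thoracic cord it read 24.4, 19.1, 35.2 and 27.1 CPM in controls and 51.1, 85.4, 55.7 and 40.3 CPM in treated animals. The log2 fold change was 1.11 ± 0.29 (adjusted p = 0.981). Every treated library there was above every control library, and ABCA1 was the only member without overlap in that region, against 2.15% of all genes. In cervical cord it read 71.4, 49.1, 73.8 and 58.4 CPM in controls and 159, 146, 95.0 and 63.7 CPM in treated animals. In lumbar cord it read 76.4, 65.9, 73.5 and 59.7 CPM in controls and 327, 201, 135 and 50.6 CPM in treated animals. The log2 fold changes were 0.80 ± 0.27 and 1.19 ± 0.43. In these regions 3 of the 4 treated libraries stood above all controls and treated library 4 stood among or below them. Treated library 4 also had the highest mitochondrial share of each region, 25.7% in cervical and 27.04% in lumbar cord. The other libraries held at most 17.2% and 16.2% there. The part of this share in the ABCA1 values was not tested.

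Summed per animal over the cord, ABCA1 read 57.2, 44.4, 59.2 and 49.3 CPM in controls and 178, 144, 94.9 and 53.4 CPM in treated animals, and the log2 fold change was 1.06 ± 0.30 (edgeR adjusted p = 0.858). Leaving out each animal in turn gave 0.82 to 1.32, with no fit past the threshold. The treated values spread over more than a 3-fold range while the controls stayed close together. Without the lumbar libraries of low MOG the summed value was 0.92 and the lumbar value 0.88 in place of 1.19 ± 0.43. Without the libraries of high mitochondrial share the thoracic value was 1.43 in place of 1.11 ± 0.29. ABCA1 lies on chromosome 15 at 32782293 to 32930068 on the plus strand. The microglia and macrophage markers, like ABCA1, were positive in the summed cord, 6 of 6 with a median log2 fold change of 0.48. Their sums per library are CPM of total counts, whereas the ABCA1 values are TMM-scaled. In treated libraries 1 to 4 the marker sum was 366, 421, 396 and 435 CPM in lumbar cord. It was 476, 387, 524 and 461 CPM in thoracic cord and 457, 288, 425 and 429 CPM in cervical cord. The order of these sums beside that of ABCA1 differed between the regions. The part of these markers in the ABCA1 difference was not tested.

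**Figure D3:**
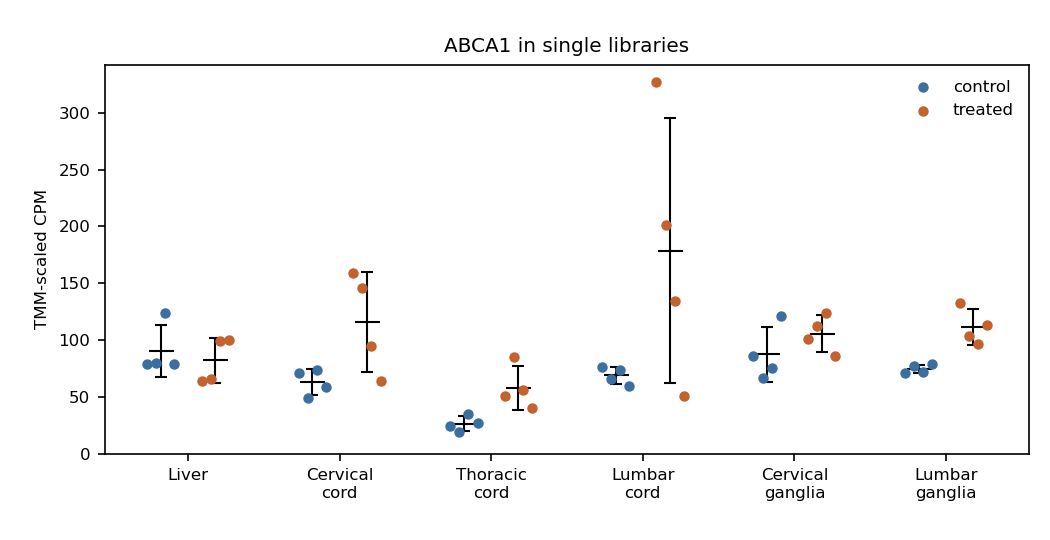
Points are ABCA1 levels in single libraries (TMM-scaled CPM, control in blue and treated in orange), with mean and SD in black, for the 6 tissues. The treated points of the 3 cord regions spread upward from the controls, and in the lumbar ganglia all 4 treated points lie above all 4 controls.

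ABCC9 read 9.72, 7.49, 12.3 and 9.89 CPM in the summed control cords and 5.39, 7.65, 5.51 and 4.79 CPM in the treated ones, with a log2 fold change of -0.75 ± 0.24 (adjusted p = 0.858). The groups overlapped through control 2 and treated 2. Its regional values were -0.74 ± 0.30, -0.98 ± 0.59 and -0.69 ± 0.34 in cervical, thoracic and lumbar cord. ABCB1, the barrier transporter, gave -0.52 ± 0.31, -0.40 ± 0.48 and -0.50 ± 0.36 in the same regions, and none passed. The 8 endothelial markers were all negative in the summed cord, with a median log2 fold change of -0.51, and 0 of the 8 passed. The 5 pericyte markers were positive for 2 and negative for 3 there, with a median of -0.23, and 0 passed. The part of either list in the values of ABCC9 and ABCB1 was not tested.

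ABCD4 read 53.1, 61.5, 56.2 and 54.2 CPM in the summed control cords and 70.7, 67.5, 72.9 and 61.5 CPM in the treated ones, 0.28 ± 0.12 (adjusted p = 0.858). The lowest treated and the highest control both round to 61.5 CPM, with the treated above. ABCD4 and ABCG8 were the 2 members of 41 without overlap, against 3.18% of all genes. ABCB9 gave 0.50 ± 0.19 in cervical cord (adjusted p = 0.504). ABCA2 in thoracic cord read 841, 611, 1321 and 455 CPM in controls and 398, 462, 677 and 281 CPM in treated animals, -0.85 ± 0.39, with groups that overlapped. Of the roles, the chromosome 16 cluster had 5 of 5 negative values in the summed cord (median -0.45), beside fibroblast markers that were 5 of 5 negative (median -0.58) and Schwann cell markers that were 5 of 6 negative (median -0.60). The part of these markers was not tested.

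The lumbar ganglia were the tissue where members passed the test. Of 40 members tested, 3 passed an adjusted p of 0.05, against 4.29% of all 14267 genes. ABCA1 and ABCA10 were higher in treated animals, where 0.638% of all genes passed higher, and ABCA3 was lower, where 3.65% passed lower. The members' share was not tested against these backgrounds. Among the members 13 of 40 had an unadjusted p under 0.05, against 22.6% of all genes. Groups did not overlap for 10 of 40 members, 7 with the treated above and 3 with the treated below, against 16.8% of all genes (7.44% above and 9.32% below). The median log2 fold change was -0.01 over members and 0.05 over all genes.

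ABCA1 read 71.1, 77.2, 71.5 and 78.5 CPM in control lumbar ganglia and 132, 104, 96.3 and 113 CPM in treated ones. All treated libraries were above all controls, with means of 74.6 ± 3.83 and 112 ± 15.5 CPM (SD, n = 4). Its log2 fold change was 0.58 ± 0.11 (edgeR adjusted p = 0.0325). The 6 microglia and macrophage markers were all positive in lumbar ganglia, with a median log2 fold change of 0.35, 0 of them passed, and their part was not tested. In cervical ganglia ABCA1 read 86.1, 66.6, 75.04 and 121 CPM in controls and 101, 112, 124 and 85.5 CPM in treated animals, 0.29 ± 0.22, with overlap.

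ABCA10, the member of the chromosome 16 cluster at 66289443 to 66365582, read 50.3, 50.4, 43.5 and 57.8 CPM in control lumbar ganglia and 77.5, 74.0, 78.5 and 68.6 CPM in treated ones. The groups did not overlap, with means of 50.5 ± 5.85 and 74.6 ± 4.47 CPM (SD, n = 4), and the log2 fold change was 0.56 ± 0.11 (adjusted p = 0.0330). Its neighbours ABCA8, ABCA6 and ABCA9 gave 0.27 ± 0.12, 0.48 ± 0.26 and 0.36 ± 0.20, and ABCA5 gave -0.32 ± 0.14, and none of those passed. In cervical ganglia ABCA10 gave 0.02 ± 0.24.

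ABCA3 (chromosome 20, 2356023 to 2405725, minus strand) read 205, 168, 227 and 214 CPM in control lumbar ganglia and 81.2, 134, 148 and 121 CPM in treated ones. Every treated library was below every control, with means of 204 ± 25.2 and 121 ± 28.8 CPM (SD, n = 4), and the log2 fold change was -0.76 ± 0.16 (adjusted p = 0.0449). In cervical ganglia ABCA3 read 197, 209, 186 and 136 CPM in controls and 141, 136, 82.2 and 98.1 CPM in treated animals, -0.69 ± 0.16 (edgeR adjusted p = 0.348), where DESeq2 passed it. Its value was thus similar in the other ganglion region, with overlap through control library 4, the library rich in fibroblast markers.

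**Figure D4:**
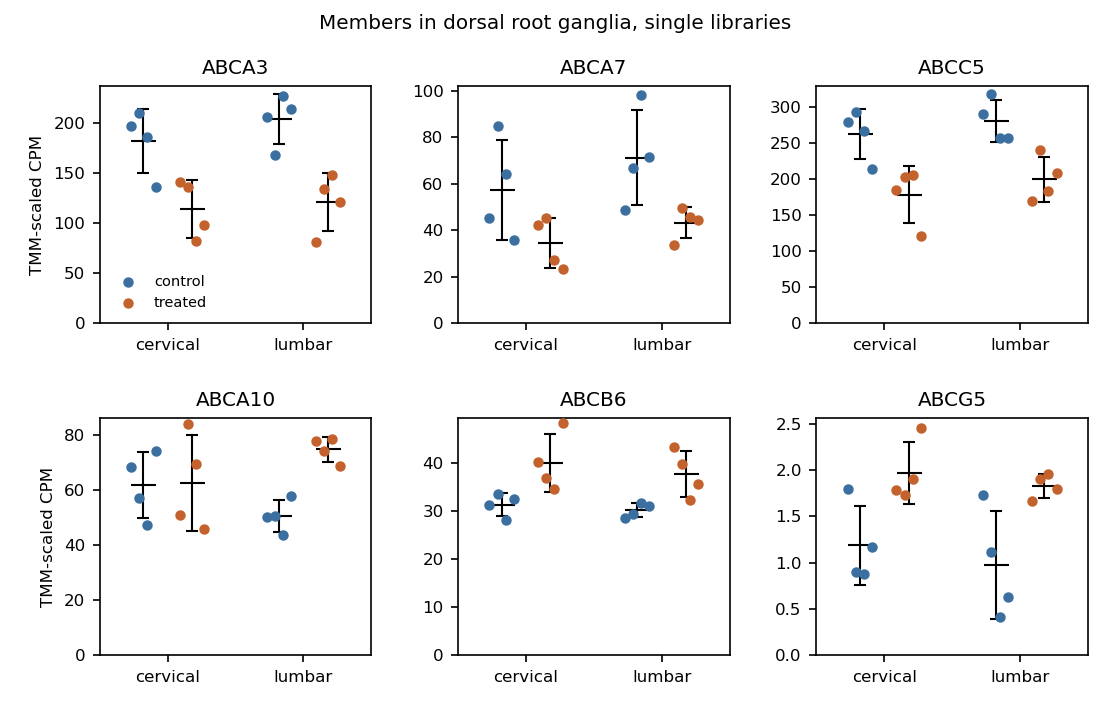
Points are single ganglion libraries (TMM-scaled CPM, control in blue and treated in orange) for ABCA3, ABCA7, ABCC5, ABCA10, ABCB6 and ABCG5 in the cervical and lumbar regions, with mean and SD in black. In the lumbar region the treated points of ABCA3 and ABCC5 lie below all controls and those of ABCA10 and ABCB6 above all controls.

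These 3 calls were close to the threshold. With 1 library left out in turn, ABCA1 kept log2 fold changes of 0.48 to 0.64 but passed in 2 of 8 fits, those without treated 1 or treated 2. ABCA10 kept 0.48 to 0.65 and passed in 2 of 8, without control 4 or treated 1, and ABCA3 kept -0.91 to -0.62 and passed in 2 of 8, without treated 1 or treated 2. Under total counts, which moved the median of all genes to 0.24, 7 members passed, all higher in treated ganglia, and ABCA3 had an adjusted p of 0.0538. DESeq2 passed 6, namely ABCA1, ABCA10 and ABCD4 higher and ABCA3, ABCA7 and ABCC5 lower. The share of all genes that passed under total counts or DESeq2 is not given here, so these larger counts were not compared with a background.

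**Figure D5:**
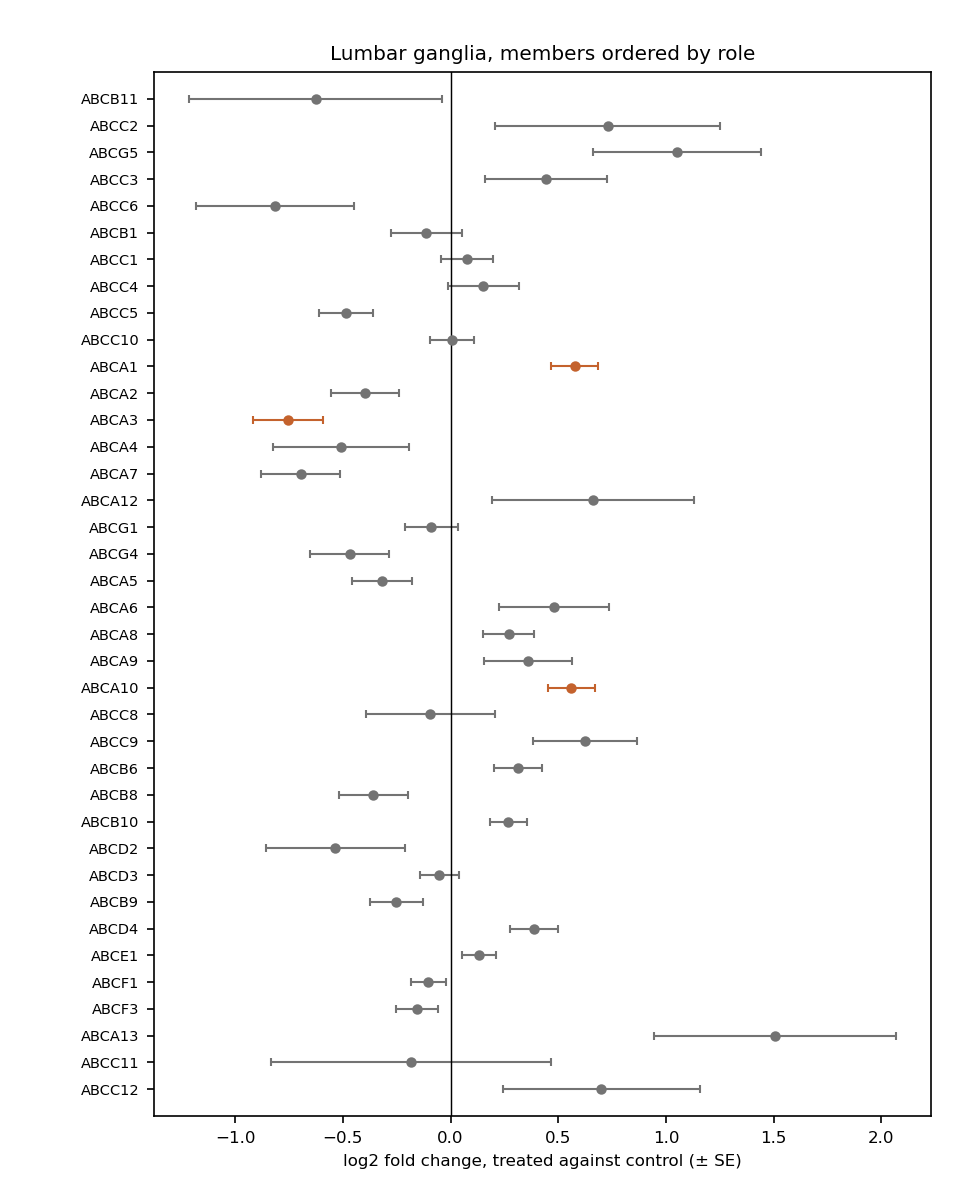
Points are log2 fold changes of treated against control lumbar ganglia for 38 of the 40 tested members in the order of their roles, with bars of 1 standard error and orange for the 3 that passed. ABCA1 and ABCA10 lie to the right of 0 and ABCA3 to the left.

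Further members stood apart in the lumbar ganglia without passing. ABCC5 (chromosome 2, 88591446 to 88687659, minus strand) read 290.4, 319, 258 and 258 CPM in controls and 169.6, 240.3, 183 and 208 CPM in treated ganglia, -0.49 ± 0.13 (adjusted p = 0.0727). In cervical ganglia it read 279.7, 294, 267 and 214 CPM in controls and 185, 203, 206 and 121 CPM in treated animals, -0.55 ± 0.19 (adjusted p = 0.574). Every treated library was below every control in both regions, and in cervical ganglia ABCC5 and ABCB6 were the 2 members of 39 without overlap, against 5.48% of all genes.

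ABCB6, the porphyrin transporter, read 28.6, 29.4, 31.7 and 31.1 CPM in control and 43.3, 39.8, 32.2 and 35.7 CPM in treated lumbar ganglia. It read 31.2, 33.6, 28.1 and 32.6 CPM in control and 40.2, 36.9, 34.6 and 48.3 CPM in treated cervical ganglia. Treated libraries were above all controls in both regions, with log2 fold changes of 0.31 ± 0.11 and 0.36 ± 0.18, and neither passed. ABCD4 read 27.6, 27.4, 28.2 and 29.2 CPM in control and 41.7, 39.9, 30.2 and 36.3 CPM in treated lumbar ganglia, 0.39 ± 0.11 (adjusted p = 0.0938), also without overlap. ABCA7 gave -0.70 ± 0.18 in lumbar (adjusted p = 0.08) and -0.77 ± 0.27 in cervical ganglia, and ABCG4 -0.47 ± 0.18 in lumbar ganglia.

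In cervical ganglia alone, 0 of 39 members passed in edgeR, against 0% of all genes, and 3 had an unadjusted p under 0.05, against 7.35%. With both regions fitted together by limma voom, keeping the animal as a random block, 0 of 41 members passed, against 0.943% of all genes, and 8 had an unadjusted p under 0.05, against 11.5%. ABCC5 came closest in that fit, with -0.58 ± 0.13 (adjusted p = 0.0522). It passed in 2 of the 10 fits that leave out an animal and in 4 of 7 other settings, among them the fit without the cervical ganglion library rich in fibroblast markers (adjusted p = 0.0252). ABCA3 gave -0.73 ± 0.23 (adjusted p = 0.165) and ABCB6 0.35 ± 0.13 (adjusted p = 0.282).

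By role in the lumbar ganglia, the 8 members grouped under cellular lipid export held 2 positive and 6 negative values with a median log2 fold change of -0.43. In this group 1 passed in each direction, and 3 values were positive under total counts. The group is broad and also holds ABCA2, ABCA3 and ABCA4, whose described roles are in endosomes and lysosomes, surfactant loading and photoreceptors. The 6 neuron markers were all negative with a median of -0.87, and SNAP25, NEFL and NEFM passed lower, while total counts left 5 of the 6 negative. Their summed level was 21457 to 30558 CPM in control and 10115 to 15086 CPM in treated lumbar ganglia, and 10730 to 24935 and 6247 to 15273 CPM in cervical ganglia. The sensory neuron markers summed to 2074 to 2451 CPM in control and 1307 to 3333 CPM in treated lumbar ganglia. ABCA3, ABCC5, ABCA7 and ABCG4 had negative values there like the neuron markers, and the part of those markers in the values was not tested.

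Across the 6 tissues, ABCB6, ABCB10, ABCD4 and ABCG5 had positive log2 fold changes in all 6, also under median-ratio and total-count scaling. ABCA3, ABCA5 and ABCF1 were negative in all 6 with TMM and median-ratio scaling, whereas total counts left 4, 5 and 3 of the 6 negative. ABCA1 was positive in 5 of 6, with liver at -0.16 ± 0.14 and means of 90.3 ± 22.6 CPM in control and 82.1 ± 20.05 CPM in treated livers, and total counts made liver positive as well. The tissues share control animals, so these counts are not independent of one another.

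Whether effects differed between organs was tested in a limma voom fit of all 48 libraries. For cord against liver 0 of 41 members passed, against 0.157% of all genes, and the smallest adjusted p was that of ABCA1, whose effect was larger in cord by 1.15 ± 0.33 on the log2 scale (adjusted p = 0.276). For ganglia against cord 0 passed, against 0.308%, with ABCA3 lower by -0.57 ± 0.19 (adjusted p = 0.210). For ganglia against liver 0 passed, against 0.0328%, and ABCA13, which lies near 0 CPM in all neural tissues, had the smallest adjusted p, 0.150. An unadjusted p under 0.05 was found for 7 members in cord against liver, 5 in ganglia against liver and 5 in ganglia against cord. The share of all genes under that p was not taken, so these counts were not compared with a background. That a member passed in lumbar ganglia and not elsewhere therefore does not show that its effect was larger there.

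Among the regulators of sterol transporters, a list of 8 genes with the liver X receptors, their partners and the sterol regulatory factors, SREBF2 alone passed in any tissue. SREBF2, the transcription factor of cholesterol synthesis and uptake, was lower in treated lumbar ganglia by a log2 fold change of -0.50 ± 0.10 (edgeR adjusted p = 0.0382). Its means were 258 ± 42.1 and 181 ± 19.8 CPM (SD, n = 4), and 3.65% of all genes passed lower there. Under total counts its adjusted p there was 0.0840. In cervical cord its means were 257.7 ± 26.7 CPM in control and 157.3 ± 3.56 CPM in treated animals, -0.71 ± 0.12 (adjusted p = 0.343). Treated libraries were below all controls in each of the 5 neural tissues, while liver gave -0.15 ± 0.13. Of all genes, 6.08%, 2.15% and 1.57% lacked overlap in cervical, thoracic and lumbar cord, and 5.48% and 16.8% in cervical and lumbar ganglia. These tissues share their control animals, so the 5 are not independent of one another.

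APOE, an acceptor of exported lipid, had means of 500 ± 67.1 and 943 ± 263 CPM in cervical cord, 0.88 ± 0.22 (adjusted p = 0.504). The treated stood above all controls there, where 6.08% of all genes lacked overlap. Of the 6 tested genes in its list, 4 were negative in cervical cord, with a median of -0.09. APOE gave 0.39 in thoracic cord, 0.84 in lumbar cord, 0.65 in cervical ganglia, -0.02 in lumbar ganglia and -0.50 in liver, and none passed. HBS1L, which rescues stalled ribosomes at a step that ABCE1 completes, was lower in treated lumbar ganglia, -0.53 ± 0.11 (adjusted p = 0.0383), and in the ganglia together, -0.52 ± 0.11 (limma voom adjusted p = 0.0395). Of all genes, 3.65% passed lower in lumbar ganglia, and 0.943% passed in either direction in the ganglia together. Under total counts neither call held for HBS1L, with adjusted p-values of 0.0538 in lumbar ganglia and 0.337 in the ganglia together. Of the 7 lists of partners and regulators, no other gene passed in any tissue.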

How the data were processed

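RNA was extracted from tissue kept in RNAlater, and libraries were made with a stranded mRNA kit and sequenced as 50 bp paired reads, per the labels' protocols. The authors deposited whole-number counts per gene, made with featureCounts 1.4.6-p1 on the Ensembl 94 annotation of Macaca_fascicularis_5.0 by gene name, per the file headers. The command in the header sets neither strand nor paired counting, so reads of overlapping genes cannot be told apart by strand. STAR 2.5.3a is named in the submitters' processing notes. In that annotation another gene overlaps ABCB8, ABCC10, ABCE1 and ABCF1, and a non-coding RNA gene with an Rfam identifier overlaps ABCA2, ABCA4, ABCC8, ABCD3 and ABCD4.

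Treated and control libraries of each tissue were compared with edgeR 4.0.16 in R 4.3.3 (TMM scaling, filterByExpr at 10 counts, robust quasi-likelihood test, sex as covariate), with Benjamini-Hochberg adjustment over all genes tested and a threshold of 0.05. Cord counts were also summed per animal. The ganglion regions together, and the difference of effects between organs, were fitted with limma 3.58.1 (voom, the animal as random block). Organs were compared over the 24 control libraries with the animal as block. Errors of log2 fold changes are standard errors. Of the 42 members, 41 passed the filter in at least 1 tissue, and 33 in all 6. The values of 2 members are not reported here singly.

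The members and gene lists were chosen with earlier results of these data known. Named were members that passed, the 3 with the smallest p in each comparison, those without overlap in 2 tissues or more, the top 3 per organ and a fixed set by role. Alternatives were DESeq2 1.42.0, voom, other scalings, no filter, no sex term, the replicate number as block, and leaving out libraries. The fit without the cervical ganglion library rich in fibroblast markers was added after seeing the data. The tests were tested on simulated counts. Library totals of 35453786 to 53480762 set the counting precision. Same-numbered libraries deviated together (all correlations over 0.1) only in lumbar cord, where the block changed no call. No libraries were identical.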

Additional observations from a re-analysis of the deposited data

Results flagged for a closer look

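Dixon's test for a single library far from the other 3 was run on 5 members, those that passed in a treated against control fit or lacked overlap in 2 or more tissues (ABCA1, ABCA3, ABCA10, ABCB6 and ABCC5). It was not run on the other members named in the text. Of 60 groups of 4 libraries it marked 5, where chance marks about 1 in 20. ABCA10 was flagged in 3 of them. It read 32.6 CPM in cervical cord control 1, where the others read 1.15 to 5.24 CPM, 129 CPM in lumbar cord control 1, where the others read 5.07 to 23.3 CPM, and 93.1 CPM in lumbar cord treated 1, where the others read 2.46 to 10.99 CPM. The Schwann cell markers summed to 8207, 27651 and 19669 CPM in these 3 libraries, the highest of their groups, and the part of those markers was not tested. ABCA1 read 124 CPM in liver control 3, where the other controls read 78.5 to 79.5 CPM. ABCA3 read 73.2 CPM in thoracic cord control 3, where the others read 59.0 to 61.2 CPM.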

How the results depend on the processing

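The count of members that passed was recomputed under each alternative, and 166 of these counts were within 1.5 times the main one while 18 moved. The main count was 0 in every treatment fit except lumbar ganglia and in every difference of effects. Those counts could not fall, so the 166 say little about stability. In lumbar ganglia 6 of the 8 counts with a library left out moved. The share of all genes that passed under each alternative is not given beside these counts. In lumbar ganglia, where 3 members passed, DESeq2 gave 6, total counts 7, the fit of all 48 libraries 0, and leaving out each library 0 to 4. The replicate block gave 0 there, with adjusted p-values of 0.0614 for ABCA1, 0.0729 for ABCA10 and 0.0778 for ABCA3, although the numbers do not pair these libraries, and the block changed no other count. Where the main count was 0, DESeq2 gave 1 in cervical ganglia (ABCA3) and 1 in the summed cord (ABCG8). For the ganglia together, median-ratio scaling, no filter, no sex term and the fit without the fibroblast-rich cervical control library gave 1 each. Leaving out each animal gave 0 to 2 there. The 2 members were ABCA3 and ABCC5, when the treated animal of cervical ganglion library 4 was left out. Counts between organs did not move.

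Some directions turned. For total counts, liver against cord gave -0.38 for ABCB6, -0.048 for ABCB8, -0.15 for ABCE1, -0.23 for ABCF3 and -0.96 for ABCG1 (log2). Liver against ganglia gave -0.49 for ABCE1, -0.56 for ABCF1 and -0.73 for ABCF3. The effect of ABCB6 in cord less that in liver gave -0.11. Leaving out 1 control animal gave 0.20 for ABCA8 and -0.057 for ABCG1 in liver against cord, and -0.018 for ABCB10 in ganglia against cord. Treated libraries in place of controls gave 0.43 for ABCA8 and -0.24 for ABCG1 in liver against cord, and -0.048 for ABCA1, 0.38 for ABCG5 and -0.15 for ABCG8 in ganglia against cord. Leaving out 1 liver library gave -0.036 to 0.37 for ABCB11, -0.059 to 0.18 for ABCC2 and -0.041 to 0.50 for ABCC3 under treatment, and a second such fit of ABCB11 gave -0.013. The causes were not tested. With 4 libraries per group, leaving out a single library was enough to end each call in lumbar ganglia.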

Other observations

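ABCG8, the canalicular sterol transporter, had few reads in cord, and they were uneven between the groups. Summed over the 3 cord regions, the control animals held 3, 3, 4 and 7 reads and the treated animals 18, 25, 29 and 41, so the groups did not overlap. In cervical cord alone the 4 control libraries held 2 reads and the 4 treated libraries 58. The fitted log2 fold change of the summed cord was 2.74 ± 0.56 (edgeR adjusted p = 0.784), and DESeq2 gave an adjusted p of 0.0460. Its head-to-head neighbour ABCG5 had a positive value in all 6 tissues without passing in any. ABCG8 was singled out after its values were seen. The cause was not tested, and the level, at most 0.396 CPM in any treated animal, is far below that of liver, where 4 control libraries held 39218 reads.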
